A study of Mus musculus with 4 samples.

Results

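Genes for vascular endothelial growth factors (VEGF), platelet-derived growth factor A (PDGF-A) and their receptors were followed in the embryonic mouse retina, together with general markers of blood vessel lining. The set was given by name and holds 10 of the 25239 genes in the deposited tables: the ligands Vegfa, Vegfb, Vegfc and Pdgfa, the receptors Flt1, Kdr, Tek and Pdgfra, and the endothelial markers Pecam1 and Egfl7. The libraries came from dissected retinas at E13.5, 2 of genotype control and 2 of genotype Isl1cKO, a conditional knockout of the LIM-homeodomain factor gene Isl1. The series describes the latter retinas as lacking Isl1 and asks how their transcriptome differs from control. The Cre driver, the alleles of the controls and whether a library held 1 animal or a pool are not given in the sources used here, and nothing says that replicates came from separate litters, so p-values measure only the spread between these libraries, which may be technical. Gene positions below are on build mm10.

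VEGF-A is a secreted signal that makes endothelial cells divide and migrate, mainly through the receptor KDR, while FLT1 binds it tightly and signals little. VEGF-B binds FLT1, and VEGF-C acts on FLT4 and, after processing, on KDR. TEK is the angiopoietin receptor of endothelial cells. PDGF-A signals through PDGFRA, and in the eye it is known as a ganglion cell signal for the PDGFRA-bearing astrocytes that later enter the retina and guide its vessels. At this stage the mouse retina itself has no vessels, which lie in the vitreous on 1 side and in the choroid on the other, and retinal progenitors are known to carry Kdr.

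In brief, Vegfa and Kdr were abundant, whereas Flt1, Tek and Pecam1 were mostly below 1 TPM (transcript abundance corrected for length and scaled to the same sum in every library). Vegfa was the member with the smallest p-value, with group means 1.39-fold apart and higher under the Isl1cKO label, and it did not pass the test over all genes. Vegfb, Vegfc, Pdgfa and Pdgfra overlapped between the groups, and Kdr was lower by a margin that rested on 1 control library. Flt1, Tek and Pecam1 were highest in control replicate 1, and without that library the log2 difference went from -0.54 to -0.28 for Flt1, from -0.15 to -0.081 for Tek and from -0.67 to -0.11 for Pecam1. Adding 1 TPM before taking logs shrinks differences at such levels. Control replicate 2 still lay above both libraries labelled Isl1cKO for Flt1 (0.254 against 0.0272 and 0.0402 TPM) and for Tek (0.125 against 0.0825 and 0.0451 TPM), but not for Pecam1.

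The stretches before the start sites of 4 members are shown because these genes span the range of levels in the set, from Vegfa and Kdr at the top to Flt1 and Tek at the bottom. Sequences are from RefSeq, build GRCm38.p6, whose table matched 9 of the 10 members. Each runs 5′ to 3′ over the 250 bases before the start, and capitals mark GC boxes (GGGCGG or its complement CCGCCC).
Vegfa, chr17:46032378-46032627, minus strand: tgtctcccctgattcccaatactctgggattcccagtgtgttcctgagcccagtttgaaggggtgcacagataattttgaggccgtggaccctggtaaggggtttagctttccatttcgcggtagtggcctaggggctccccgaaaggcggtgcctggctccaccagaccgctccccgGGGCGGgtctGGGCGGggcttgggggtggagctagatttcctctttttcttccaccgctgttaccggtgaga
Kdr, chr5:75978456-75978705, minus strand: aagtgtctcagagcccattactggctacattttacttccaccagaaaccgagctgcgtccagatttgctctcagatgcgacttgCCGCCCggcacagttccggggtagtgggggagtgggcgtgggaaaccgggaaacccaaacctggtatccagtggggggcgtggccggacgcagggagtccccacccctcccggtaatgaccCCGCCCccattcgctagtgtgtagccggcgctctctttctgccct
Flt1, chr5:147726012-147726261, minus strand: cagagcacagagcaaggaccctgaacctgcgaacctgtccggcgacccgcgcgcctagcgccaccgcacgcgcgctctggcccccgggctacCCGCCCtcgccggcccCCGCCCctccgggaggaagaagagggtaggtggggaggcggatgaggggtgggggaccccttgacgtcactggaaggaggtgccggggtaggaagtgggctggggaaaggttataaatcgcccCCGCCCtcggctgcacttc
Tek, chr4:94739039-94739288, plus strand: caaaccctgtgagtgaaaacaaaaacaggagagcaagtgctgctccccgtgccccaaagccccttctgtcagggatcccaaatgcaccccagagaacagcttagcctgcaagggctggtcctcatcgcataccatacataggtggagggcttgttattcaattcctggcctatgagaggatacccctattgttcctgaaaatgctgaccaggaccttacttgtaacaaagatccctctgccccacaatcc

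The 4 windows differed in base composition. The dinucleotide CG occurred 23 times before Flt1, 16 times before Kdr, 11 times before Vegfa and 2 times before Tek, against a median of 6 over the 32851 windows of the table. The Flt1 window held 3 GC boxes, those of Vegfa and Kdr 2 each and that of Tek 0, and 32.7% of all windows held at least 1. TATAAA, read on both strands, was present only before Flt1 among the 4, and in 12.4% of all windows. ACGTG, a form of the core bound by hypoxia-inducible factors (HIF), was in none of the 4 windows and in 16.6% of all. The other form, GCGTG, was not counted over the windows. It can be read in the Kdr window and, as its complement, in the Flt1 window. The table holds another start of Vegfa, whose window (chr17:46025164-46025413, minus strand, not shown) held 1 ACGTG. That window lies inside the Vegfa gene (46016993 to 46032377). Bases further than 250 from a start were not read, so these counts do not settle whether Vegfa has HIF sites. GGAA, the core of ETS factor sites, was in each of the 4 and in 93.4% of all. Abundant Kdr and scarce Flt1 thus both start in windows rich in CG.

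The libraries were checked before the members were read. Aligned sequence, derived from the ratio of coverage to FPKM, was 12.6 to 14.3 gigabases, and 13554 to 13932 genes reached 1 TPM. Pax6, a gene of retinal progenitors, was abundant in every library, between 537 and 610 TPM. Isl1 itself had 242 and 201 TPM in control, against 321 and 223 TPM in those labelled Isl1cKO (log2 fold change 0.28, SE 0.21, limma adjusted p = 0.683). The targeted gene was therefore not lower under the knockout label, the tables hold no value per exon, and every direction below rests on the labels alone.

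Of the 10 members, 7 had at least 1 TPM in at least 2 libraries and entered the limma fit of log2(TPM + 1) over 13984 genes. None of the 7 had an adjusted p-value under 0.05, where 0.493% of all tested genes did (0.0286% higher and 0.465% lower under the Isl1cKO label). Unadjusted, 2 members had p-values below 0.05, Vegfa and Egfl7, both higher, and 12.1% of all tested genes did (3.20% higher and 8.92% lower). The groups did not overlap for 3 of the 7, Vegfa and Egfl7 being higher and Kdr lower, where the background was 44.9% (14.9% higher and 30.0% lower). Among all 10 members 5 had groups that did not overlap, with Flt1 and Tek also lower, beside 40.2% of the genes with any value above 0. Counts this small are not read as a property of the set. The median log2 fold change of the 7 was 0.0048, and that of all tested genes was -0.048.

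**Figure D1:**
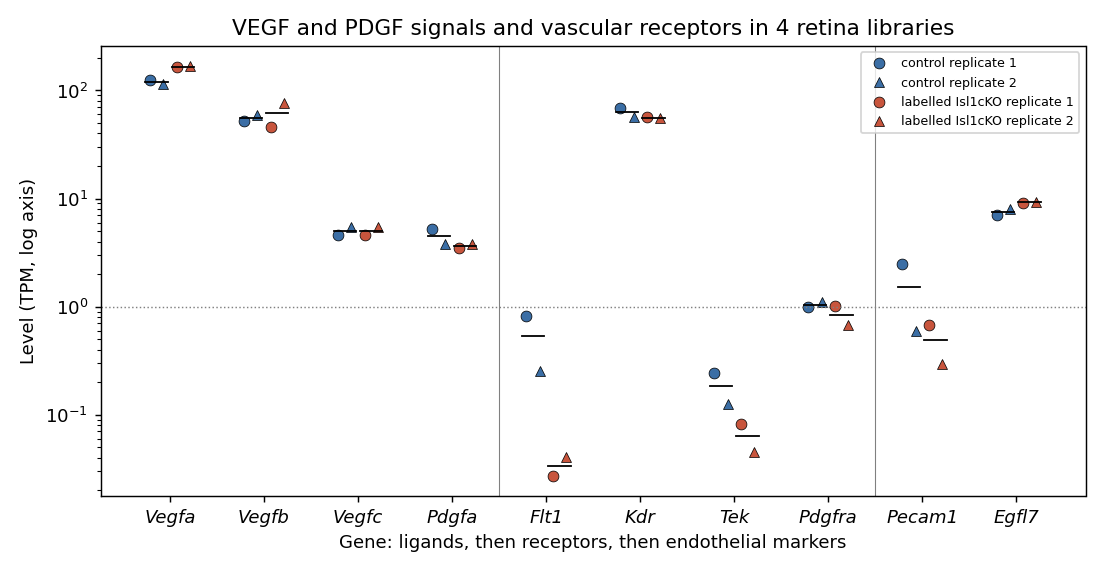
Level of each of the 10 members in TPM on a log axis, with circles for replicate 1 and triangles for replicate 2, blue for control and red for the libraries labelled Isl1cKO, bars at the mean of 2 libraries and a dotted line at 1 TPM. Vegfa lies at 115 to 125 TPM in control and at 166 to 167 TPM under the Isl1cKO label, Kdr lies between 55.5 and 69.0 TPM, and Flt1 and Tek stay below 1 TPM in each library.

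Vegfa (chromosome 17, 46016993 to 46032377, minus strand) was the most abundant member. Control replicates 1 and 2 had 125 and 115 TPM, and the libraries labelled Isl1cKO had 166 and 167 TPM. Both of the latter lay above both controls, and they differed from each other by less than the controls did. The control mean was 119.8 ± 7.42 TPM and the other 167 ± 0.700 TPM (SD, n = 2 each), a ratio of 1.39. The log2 fold change was 0.47 (SE 0.087, 95% interval 0.24 to 0.71; limma adjusted p = 0.171, from 0.00390 unadjusted). Among all tested genes 1.46% had a higher fold change and 2.27% a smaller p-value. Vegfa passed with a limma adjusted p of 0.0495 when the variance prior followed the mean level, and under none of the other 12 alternatives, where it ranged from 0.0918 to 0.699.

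Vegfb, the ligand of FLT1 (chromosome 19, 6982472 to 6987651), was the next ligand by level. Control libraries had 52.0 and 59.6 TPM, and those labelled Isl1cKO had 45.7 and 76.9 TPM. The control values lay between the other 2, so the groups overlapped. The log2 fold change was 0.090 (SE 0.27, 95% interval -0.62 to 0.80; limma adjusted p = 0.922). It came to -0.28 with Isl1cKO replicate 2 left out and to 0.46 with Isl1cKO replicate 1 left out, so its sign rests on which of these libraries is kept.

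Vegfc, the lymphatic growth factor (chromosome 8, 54077532 to 54186454), was low and even. Its levels were 4.55 and 5.47 TPM in control and 4.62 and 5.43 TPM under the Isl1cKO label. The groups covered the same range, with a log2 fold change of 0.0048 (SE 0.12, 95% interval -0.33 to 0.34; limma adjusted p = 0.993).

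Within the VEGF ligands, Vegfa made up most of the TPM in each library. Counting Vegfa, Vegfb, Vegfc, Vegfd and Pgf together, Vegfa held 67.3% and 61.9% in control and 76.0% and 66.3% in the libraries labelled Isl1cKO. These shares overlapped between the groups, through the high Vegfb value of Isl1cKO replicate 2. The sum of the 5 ligands was 186 and 185 TPM in control and 219 and 252 TPM under the Isl1cKO label.

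Pdgfa (chromosome 5, 138976014 to 138994944, minus strand) had 5.25 and 3.76 TPM in control and, under the Isl1cKO label, 3.52 and 3.80 TPM. Control replicate 1 was the highest and the other 3 libraries were close to each other. The log2 fold change was -0.23 (SE 0.15, 95% interval -0.64 to 0.18; limma adjusted p = 0.642), and it was -0.033 without control replicate 1. A share of 26.1% of the annotated exon bases of Pdgfa also lies in an exon of 6330403L08Rik on the opposite strand, and whether the counting used strand is not stated. Pdgfa gave 24.3% and 19.2% of the TPM of the 4 PDGF ligands in control, and 17.7% and 20.2% under the Isl1cKO label.

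Kdr, the main signalling receptor for VEGF-A (chromosome 5, 75932827 to 75978455, minus strand), was the only abundant receptor among the members. Its levels were 69.0 and 57.0 TPM in control and, under the Isl1cKO label, 56.7 and 55.5 TPM. Control replicate 1 was highest, and control replicate 2 was within 1 TPM of Isl1cKO replicate 1, although the groups did not overlap. The log2 fold change was -0.16 (SE 0.12, 95% interval -0.47 to 0.16; limma adjusted p = 0.680), and it was -0.023 without control replicate 1. The ratio of Vegfa to Kdr in TPM was 1.81 and 2.01 in control and 2.93 and 3.01 under the Isl1cKO label, which restates the 8 values above as 1 quantity per library.

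**Figure D2:**
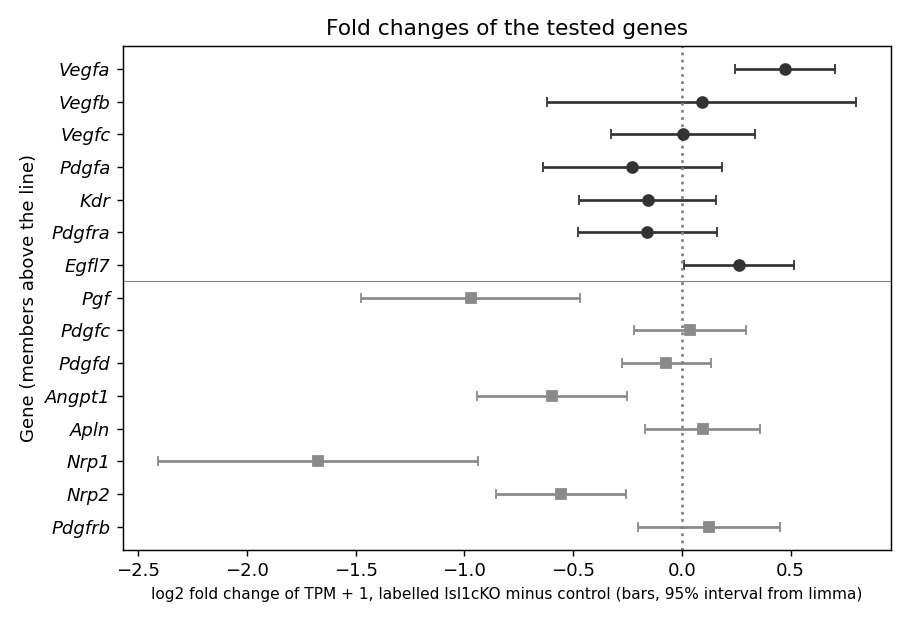
Log2 fold change of TPM + 1 in the libraries labelled Isl1cKO against control, with 95% intervals from limma, for the 7 tested members (circles) and the 8 other tested ligands and receptors of the VEGF, PDGF, angiopoietin and apelin pathways (squares). The intervals of Vegfa (0.24 to 0.71) and Egfl7 (0.010 to 0.51) lie above 0, those of Pgf, Angpt1, Nrp1 and Nrp2 lie below 0, and none of the 15 genes passed the adjusted threshold.

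Flt1, the tight-binding receptor of VEGF-A and VEGF-B (chromosome 5, 147561604 to 147726011, minus strand), was at 0.810 and 0.254 TPM in control. Under the Isl1cKO label it had 0.0272 and 0.0402 TPM. Both controls lay above both of these, but mean coverage was only 2.57 and 0.759 reads per base in control and 0.0836 and 0.117 under the Isl1cKO label. Flt1 did not enter the test, and with no filter on low values its log2 difference was -0.54 (limma adjusted p = 0.492). Kdr exceeded Flt1 in TPM by 85.1-fold and 225-fold in control, and by more than that in the other libraries.

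Tek, the angiopoietin receptor (chromosome 4, 94739289 to 94874976), was the lowest member in control, while Flt1 was lower still in both libraries labelled Isl1cKO. It had 0.244 and 0.125 TPM in control and, under the Isl1cKO label, 0.0825 and 0.0451 TPM. The groups did not overlap at these levels, and with no filter the log2 difference was -0.15 (limma adjusted p = 0.608).

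Pdgfra, the receptor for PDGF-A (chromosome 5, 75152251 to 75198206), had 0.989 and 1.10 TPM in control and, under the Isl1cKO label, 1.01 and 0.669 TPM. Isl1cKO replicate 2 alone was lower, and the groups overlapped. The log2 fold change was -0.16 (SE 0.12, 95% interval -0.48 to 0.16; limma adjusted p = 0.684), and it was -0.024 without that library. A share of 6.50% of its annotated exon bases lies in exons of other genes.

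Pecam1, an adhesion molecule of endothelial cells (chromosome 11, 106654213 to 106715281, minus strand), had 2.45 and 0.592 TPM in control and, under the Isl1cKO label, 0.681 and 0.296 TPM. Control replicate 1 stood apart, and control replicate 2 lay between the other 2. It did not enter the test, since only 1 library reached 1 TPM. With no filter its log2 difference was -0.67 (limma adjusted p = 0.677), and it was -0.11 without control replicate 1 and -1.23 without control replicate 2. Kdr exceeded Pecam1 in TPM by 28.1-fold in control replicate 1 and by 83.4-fold to 188-fold in the other 3 libraries.

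Egfl7, a secreted protein of endothelial cells whose gene also hosts a microRNA (chromosome 2, 26581083 to 26592682), was the other member with higher values under that label. It had 7.04 and 7.98 TPM in control and, under the Isl1cKO label, 9.00 and 9.38 TPM. Both of the latter were above both controls, and control replicate 1, the highest library for Pecam1, Flt1 and Tek, was the lowest for Egfl7. The log2 fold change was 0.26 (SE 0.095, 95% interval 0.010 to 0.51; limma adjusted p = 0.396, from 0.0445 unadjusted). Its coverage and its TPM did not stand in the usual ratio. Coverage per FPKM was 21.2% of the library median for Egfl7, 38.6% for Pdgfra, 59.6% for Flt1 and 74.4% to 100% for the other 7 members, and Egfl7 has 19 annotated transcripts and shares 11.2% of its exon bases with Agpat2 and other genes. With coverage in place of TPM, an alternative chosen after seeing the data, its log2 fold change was 0.18 (limma adjusted p = 0.486, from 0.0852 unadjusted).

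The other endothelial markers were read to see whether Kdr and Egfl7 moved with them. In a list of 16 genes, 10 were lower in both libraries labelled Isl1cKO than in either control and 0 were higher, where 26.6% and 13.6% of all genes with any value above 0 did so. Only 3 of the 16 entered the limma test, and 0 were called or had an unadjusted p-value below 0.05. The cadherin gene Cdh5 was at 2.55 and 0.357 TPM in control and at 0.211 and 0 TPM under the Isl1cKO label, and Tie1, a receptor related to TEK, was at 1.80, 0.336, 0.0959 and 0 TPM in the same order. These genes were chosen for display after their values were seen.

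Control replicate 1 was the highest library for 13 of the 16 endothelial markers. The summed TPM of the list without the Notch ligand gene Dll4, which retinal progenitors also express, was 22.8 and 11.2 in control and 9.10 and 8.99 under the Isl1cKO label. The median log2 difference of the 16 was -0.44, and -0.14 without control replicate 1, where 10 of the 16 were still lower in both libraries labelled Isl1cKO than in the remaining control and 2 were higher, beside 40.1% and 22.3% of all genes with any value above 0 in that comparison. Cdh5, Emcn, Icam2, Robo4, Sox18 and Esm1 were listed at 0 in Isl1cKO replicate 2, and 4 of the list were at 0 in Isl1cKO replicate 1. In whole tissue, fewer endothelial cells and less RNA per cell cannot be told apart. In the libraries where these genes were listed at 0, as in the others, Kdr lay within 55.5 to 69.0 TPM and Dll4 within 42.0 to 48.3 TPM.

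**Figure D3:**
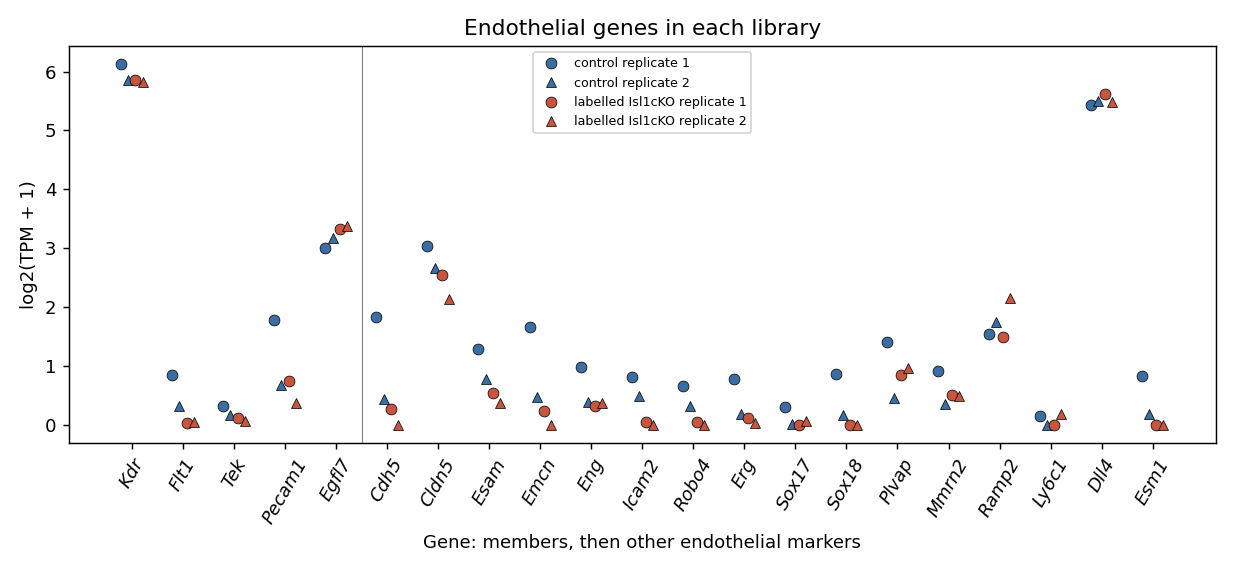
log2(TPM + 1) of 5 members and of the 16 other endothelial markers in each library, with circles for replicate 1 and triangles for replicate 2, blue for control and red for the libraries labelled Isl1cKO. Control replicate 1 is highest for 13 of the 16 other markers, while Kdr and Dll4 stay high in every library.

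Of the 8 other ligands of these pathways, 5 were tested and 0 were called. Before adjustment 2 had a limma p-value below 0.05, both lower, as did 8.92% of all tested genes in that direction. Pgf, the placental growth factor that binds FLT1, showed the largest difference. It had 3.94 and 4.48 TPM in control and, under the Isl1cKO label, 1.24 and 2.15 TPM, a log2 fold change of -0.97 (SE 0.19; limma adjusted p = 0.192). Pdgfc, the most abundant of them, was at 8.06 and 7.83 TPM in control and 8.74 and 7.64 TPM under the Isl1cKO label (log2 fold change 0.036, limma adjusted p = 0.914). Angpt1, a ligand of TEK named here after its value was seen, was at 1.77, 1.25, 0.609 and 0.691 TPM in the same order (limma adjusted p = 0.222). Pgf and Angpt1 thus lay lower without overlap (30.0% of all tested genes) while Vegfa lay higher (14.9%), none of them past the threshold.

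Of the 6 other receptors, 3 were tested and 0 were called, while 2 had a limma p-value below 0.05 before adjustment, both lower (8.92% of all tested genes). Nrp1, a co-receptor for VEGF-A that also receives semaphorin signals on axons, was both the most abundant of them and the one that differed most. It had 27.5 and 19.0 TPM in control and, under the Isl1cKO label, 8.24 and 5.06 TPM. The groups did not overlap, with a log2 fold change of -1.67 (SE 0.28, 95% interval -2.41 to -0.94; limma adjusted p = 0.149). Nrp2, named after its value was seen, was at 2.03 and 1.56 TPM in control and 0.898 and 0.895 TPM under the Isl1cKO label (limma adjusted p = 0.206). Ganglion cell markers, some of them axonal genes, were mostly lower as well. Their 16 genes summed to 4118 and 3517 TPM in control and to 2268 and 1568 TPM under the Isl1cKO label. In limma 2 of 15 tested were called, both lower (0.465% of all tested genes). Unadjusted, 13 had a p-value below 0.05, all lower (8.92% of all tested genes). The other 2 tested, Pou4f2 (126 and 124 TPM in control, 135 and 120 TPM under the Isl1cKO label) and Isl1, had positive fold changes. The part of ganglion cells in the neuropilin values was not tested.

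All 16 genes listed for carrying these receptors' signals inside the cell were tested in limma, and 0 were called or had an unadjusted p-value below 0.05. The groups did not overlap for 9 of them, all lower, where 30.0% of all tested genes were lower without overlap. Their median log2 fold change was -0.095, beside -0.048 for all tested genes. The kinase gene Akt1, the most abundant, had 248 TPM in each control and, under the Isl1cKO label, 225 and 246 TPM. Pik3r1, a PI3-kinase regulatory subunit and the one that differed most, had a log2 fold change of -0.45 (SE 0.19, limma adjusted p = 0.454).

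Vegfa is a known target of the HIF factors, so a list of 14 other genes of that response was set beside it. Of 13 tested, 11 had a positive fold change and 0 were called in limma. Unadjusted, 7 had p-values below 0.05, all higher, where the background in that direction was 3.20%. The median log2 fold change of the 13 was 0.65, and 0.39 without Isl1cKO replicate 2. Pdk1, a kinase that restrains pyruvate use in mitochondria, differed most, at 32.9 and 22.1 TPM in control and 49.8 and 74.5 TPM under the Isl1cKO label (log2 fold change 1.15, SE 0.28, limma adjusted p = 0.264). Ldha, the lactate dehydrogenase gene and the most abundant of the list, was at 1053 and 859 TPM in control and at 1361 and 2158 TPM under the Isl1cKO label (limma adjusted p = 0.330). The libraries labelled Isl1cKO were far apart for Pdk1 and Ldha, and also for Pgk1 (810 and 1174 TPM) and Bnip3 (76.1 and 122 TPM). They were close for Vegfa and for Ankrd37, a gene of the list with 21.3 and 21.0 TPM there and 19.0 and 18.1 TPM in control. Pgk1, Bnip3 and Ankrd37 were named after their values were seen. The part of the HIF response in the Vegfa values was not tested.

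**Figure D4:**
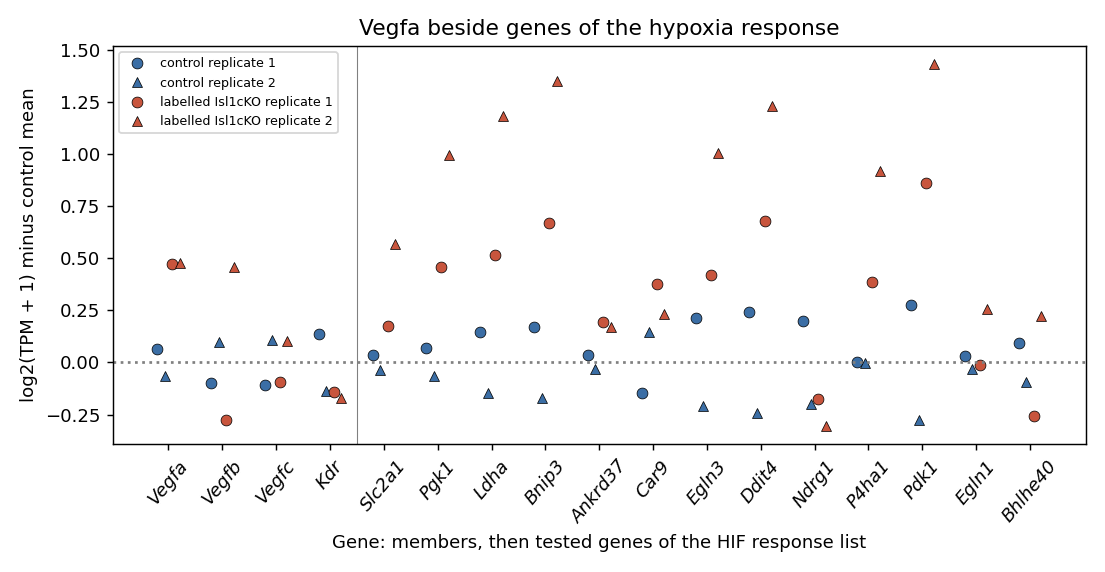
Difference of log2(TPM + 1) from the control mean in each library, for 4 members and the 13 tested genes of the HIF response list, with circles for replicate 1 and triangles for replicate 2, blue for control and red for the libraries labelled Isl1cKO. In Ldha and Pdk1 Isl1cKO replicate 2 lies well above Isl1cKO replicate 1, whereas for Vegfa the 2 coincide near 0.47.

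Markers of other cells that can bear these receptors or be carried over in dissection were read as lists, and their part in the members' values was not tested. Of 10 mural cell genes, 3 were tested and 0 called, and without Notch3 and Vtn, both abundant in every library, the other 8 summed to 4.39 and 2.47 TPM in control and 2.63 and 1.78 TPM under the Isl1cKO label. Of 11 periocular mesenchyme genes, 5 were tested and 0 called, with sums of 37.5 and 27.3 TPM in control and 25.9 and 19.0 TPM under the Isl1cKO label. The 7 astrocyte and optic stalk genes summed to 112 and 81.6 TPM in control and 47.0 and 60.3 TPM under the Isl1cKO label, with 0 of 4 tested called. At an unadjusted limma p-value below 0.05, 2 of the 4 were lower (8.92% of all tested genes), Slc1a3 (log2 fold change -1.32) and Sox9 (-0.50). Without Slc1a3 and Sox9 the other 5 summed to 9.20 and 13.8 TPM under the Isl1cKO label, on either side of both controls. The median log2 difference was 0.0011 over the 7 and -0.29 over the 4 tested. Of the 5 oligodendrocyte precursor genes Nkx2-2 was listed at 0 in all 4 libraries, and the list summed to 13.3 to 17.8 TPM with 0 called. Most of that sum was Olig2, at 12.9 to 17.4 TPM, and the other 4 genes were below 1 TPM in every library. The sum is therefore mainly a reading of Olig2 and not of the list. Of 12 lens genes 11 were tested and 6 called, all lower, where 0.465% of all tested genes were, and the sum of the 12 was 200 and 242 TPM in control against 12.3 and 8.27 TPM. The 9 red cell genes summed to 2903 and 4168 TPM in control and to 1418 and 204 TPM under the Isl1cKO label. Of 8 tested 0 were called and 4 were lower at an unadjusted limma p-value below 0.05 (8.92% of all tested genes). The sum was lowest where Cdh5 and Tie1 were at 0, but between the controls the order was reversed. Control replicate 1 had the lower red cell sum and the higher values of Cdh5 (2.55 against 0.357 TPM) and Tie1 (1.80 against 0.336 TPM). The 10 pigment epithelium genes summed to between 67.0 and 69.2 TPM in every library, but without Otx1, which had 21.7 and 28.1 TPM in control and 28.7 and 40.8 TPM under the Isl1cKO label, the other 9 summed to 46.7 and 39.9 TPM against 38.3 and 28.3 TPM. Of 8 tested 0 were called, 6 had a negative fold change (median of the 8 -0.26), and Rpe65 was listed at 0 in each library. The 9 microglia genes summed to 58.5 and 59.8 TPM in control and to 72.8 and 87.7 TPM under the Isl1cKO label, with 0 called. Of the 9, 8 had a positive fold change and 4 were higher at an unadjusted limma p-value below 0.05 (3.20% of all tested genes). Without overlap 5 were higher (14.9%). The 9 progenitor genes summed to 4372 and 3978 TPM in control and to 3274 and 3726 TPM under the Isl1cKO label, with 0 called. Of these, 4 were higher and 2 lower without overlap, beside 14.9% and 30.0% of all tested genes. Without the cyclin gene Ccnd1 (1944 and 1498 TPM in control, 848 and 961 TPM under the label) the other 8 summed to 2427 and 2479 TPM in control and to 2426 and 2766 TPM. Genes left out of these sums were chosen after their values were seen.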

How the data were processed

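Messenger RNA was selected by its poly(A) tail and sequenced with a directional kit, per the labels' protocols. Per the submitters' processing notes, Trimmomatic, FastQC, HISAT2, SAMtools, StringTie and DESeq2 were used with build mm10, and the versions, settings and annotation are not given in the sources used here. The authors deposited per library, per the file headers, a gene's coverage per base (unscaled), its FPKM and its TPM, which sums to 1000000. They hold no counts, so no count test was run, depth in reads is unknown and no counting interval is given.

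TPM was summed over repeated rows of a gene, although the members had 1 row each. Genes with at least 1 TPM in at least 2 libraries were tested on log2(TPM + 1) with limma 3.58.1 in R 4.3.3, two-sided, with genotype as the only term and Benjamini-Hochberg adjustment over all 13984 tested genes at 0.05. A pseudocount of 1 understates changes of low genes. Every p-value of a gene comes from this fit unless a setting is named. The fit was tested on simulated data.

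All 10 members were described. Of each list of other pathway genes, called genes or else the most abundant and the most different were named, and marker lists were summed. The members and lists were chosen with earlier results of these data known. Gene positions are those of the authors' tables, exon overlap is from GENCODE M21, and promoter windows are from RefSeq. Alternatives were other pseudocounts, filters, scalings and variance priors, FPKM, a replicate block, removal of crystallin and haemoglobin genes, and leaving out each library.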

Additional observations from a re-analysis of the deposited data

How the results depend on the processing

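Coverage in place of TPM was chosen after seeing the data. No member was called in the reported test, and 1 (Vegfa, adjusted p-value 0.0495 in limma) with a mean-variance trend, against 0 under each of the other 12 alternatives. Over all tested genes 69 were called, against 44 at a pseudocount of 0.1, 15 with no filter (more genes tested), 45 without crystallin and haemoglobin genes, 109 with FPKM, 110 with a mean-variance trend and 265 with the replicate block. Leaving out 1 library gave 10 to 37 calls, where the lone library of a group is assumed to vary like the others. The replicate numbers share no stated litter or day, and across genes the correlation between the groups of each replicate 1 library's deviation from its mean was 0.126. With the replicate block Nrp1 (-1.67, adjusted p-value 0.00673) and Pgf (-0.97, 0.0422) passed and no member did, Vegfa having an adjusted p-value of 0.125. Each library left out in turn moved the log2 fold change of Vegfa from 0.41 to 0.54, of Vegfb from -0.28 to 0.46, of Vegfc from -0.11 to 0.11, of Pdgfc from -0.051 to 0.12, of Pdgfa from -0.42 to -0.033 and of Kdr from -0.29 to -0.023. Sign changes of Vegfb, Vegfc and Pdgfc are within these ranges, and the cause was not tested. At a pseudocount of 0.1 the untested differences of Flt1, Tek and Pecam1 grew to -2.09, -0.78 and -1.26, and with FPKM they were -0.23, -0.060 and -0.36, by construction of the offset. A filter at 5 TPM leaves no value for Pdgfa, Flt1, Tek, Pdgfra and Pecam1. No limit was set for genes listed at 0, since the reads behind them are unknown.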
